A study of Mus musculus with 6 samples.

Results

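The 10 genes described here encode the neurofilament subunits, the related neuronal intermediate filaments and the main microtubule-binding proteins of axons and dendrites: Nefl, Nefm, Nefh, Ina, Prph, Map2, Mapt, Map1a, Map1b and Stmn2. They were taken by gene symbol from the 24537 genes listed for each library, and all 10 were present in all 6 libraries. Cerebellar RNA of 6-week-old male mice was sequenced in 3 libraries of Reln heterozygous null animals (HET) and 3 of wild-type animals (WT). Reelin, the product of Reln, is a secreted protein that guides the positioning of neurons in the developing brain. The HET mice carry the strain label Orl/BalbC and the WT mice the strain label C57BL/6, so the allele and the strain cannot be told apart in any difference given below. No label states that the 3 replicates of a group were separate animals, so the p-values measure only the spread between these libraries, which may be technical.

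Neurofilaments are heteropolymers that fill large axons and set their calibre. The light chain NEFL forms the core of the filament, the medium and heavy chains NEFM and NEFH carry long, heavily phosphorylated tails, and alpha-internexin (Ina) joins them in central neurons. Peripherin (Prph) is the intermediate filament of peripheral neurons and of motor neurons and other brainstem neurons with axons that leave the brain. MAP2 binds microtubules in dendrites, tau (Mapt) binds them in axons, MAP1A and MAP1B bind them in both, and stathmin-2 (Stmn2) binds free tubulin dimers and is enriched in growing and regenerating axons. In the cerebellum the thick axons of Purkinje cells, basket cells and the neurons of the deep nuclei are rich in neurofilament, while granule cells, which are far more numerous, have thin axons.

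The tissue and the genotype were first checked on genes outside the 10. Reln averaged 0.540 ± 0.0365 FPKM in HET cerebellum and 0.848 ± 0.0856 FPKM in WT cerebellum (SD, n = 3 each), a ratio of 0.636 with no overlap between the groups. The summed level of 6 Purkinje cell markers was 231 to 240 FPKM in HET libraries and 178 to 250 FPKM in WT libraries, and that of 7 granule cell markers was 518 to 550 FPKM in HET libraries and 487 to 540 FPKM in WT libraries. Choroid plexus markers differed between libraries of the same group, with a summed level of 3.65 to 163 FPKM in HET and 0.798 to 287 FPKM in WT, and were high in WT replicates 1 and 3 and HET replicate 2. Depths recovered from the values were 22890000 to 27100000 reads in HET libraries and 26870000 to 28610000 reads in WT libraries. Of these, 75.6 to 85.8% fell in listed genes in HET and 64.4 to 82.8% in WT, where WT replicate 2 was the lowest. FPKM divides by the size of the whole library, and 83.1% of the 6358 genes tested had a higher mean in HET, with a median difference of 0.083 on the log2(FPKM + 1) scale. When libraries were scaled to each other by the median of gene ratios, 49.1% were higher in HET and the median difference was -0.0014. Both scalings are therefore given below for each tested member and for each list of other cytoskeleton genes. For most single genes of those lists only the difference as deposited is given.

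The deposited values did not behave as reads per kilobase of exon. Low values fell in steps of whole reads, and the size of a step depended on the length of the gene with its introns. In 2263 genes with a single transcript and at least 1 intron, 84.0% of low values came within 0.1 of a whole read when the genomic span was used as the length, and 20.4% when the transcript length was used. A level in FPKM can thus be compared between libraries for 1 gene, but between genes it is set in part by intron length. For comparisons between genes the reads were divided here by the longest annotated transcript instead, which gives an RPKM on the transcript length and assumes that the reads lie in exons. Whether reads in introns were counted is not given in the sources used here.

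On this transcript RPKM scale, Map2 stood highest of the 10 genes, at 120 ± 12.5 RPKM (SD, n = 6 libraries). Stmn2 followed at 78.7 ± 7.41, Map1b at 72.5 ± 8.66, Nefl at 60.9 ± 13.6, Mapt at 54.9 ± 5.44 and Map1a at 46.0 ± 5.73 on the same scale. The heavy chain Nefh had 35.1 ± 5.67, Ina 27.3 ± 3.71, the medium chain Nefm 10.5 ± 2.48 and Prph 0.0673 transcript RPKM. The ranges of neighbouring genes in this order were separate only between Map2 and Stmn2, Ina and Nefm, and Nefm and Prph. Stmn2 was above Map1b, Map1b above Nefl and Nefl above Mapt in 4 of 6 libraries each. Neighbours among these 4 genes were thus not ordered beyond the spread between libraries. Stmn2, at 66.6 to 86.3, was separate from Mapt, at 45.6 to 61.3. Map2 also has the longest span of the 10, 267382 bases against a longest transcript of 6258 bases, and the part of any intronic reads in its place was not tested.

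None of the 10 genes passed the test between HET and WT. Of the 9 with a mean of at least 1 FPKM, limma called 0 at an adjusted p under 0.05, where 5 of all 6358 genes were called (0.0786%). An unadjusted limma p under 0.05 was found for 0 of the 9, beside 212 of the 6358 genes. As deposited, 7 of the 9 had a higher mean in HET and 2 a lower one, with a median log2 difference of 0.054, below the 0.083 of all genes tested. After scaling by the median of ratios 2 were higher and 7 lower, with a median of -0.042, so 5 of the 9 changed direction with the scaling: Nefm, Ina, Map2, Mapt and Stmn2. The direction also rested on single libraries, with 0 of 9 higher in HET without WT replicate 2, 4 without HET replicate 2, and 9 without either HET replicate 1 or WT replicate 3. In this fit the prior shared between genes carried 54.4 degrees of freedom and a gene's own libraries 4, so each SE rested mostly on other genes of like level.

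**Figure D1:**
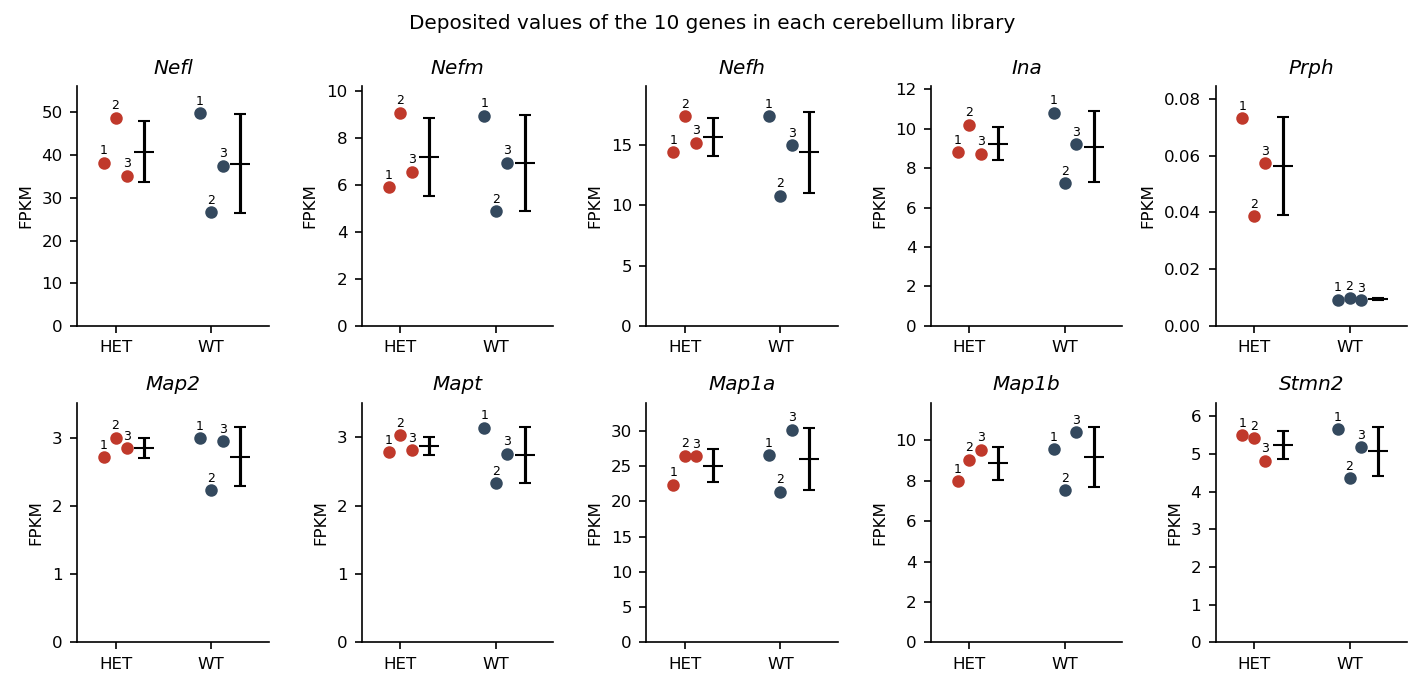
Deposited value in FPKM (vertical axis, starting at 0, a separate scale for each gene) of the 10 genes in each library, with HET in red, WT in dark blue and the replicate number beside each point; bars show the mean ± SD of 3 libraries. The groups overlap in every panel except that of Prph, where the lowest HET library has 0.0388 FPKM and the highest WT library 0.00978 FPKM.

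Nefl (ENSMUSG00000022055.7; mm10 chromosome 14, 68083863 to 68089095, plus strand), the core subunit of the filament, had 38.2, 48.8 and 35.2 FPKM in HET replicates 1, 2 and 3, against 49.9, 26.6 and 37.5 FPKM in WT replicates 1, 2 and 3. The highest and the lowest library were both WT, and all HET libraries lay between them. Its mean was 40.7 ± 7.15 FPKM in HET and 38.0 ± 11.7 FPKM in WT (SD, n = 3 each), a ratio of 1.07. The log2 difference was 0.13 (SE 0.19, 95% interval -0.24 to 0.50, limma adjusted p = 0.90), and 0.014 (95% interval -0.30 to 0.33) after scaling by the median of ratios. Between 3735 and 7415 reads lay behind each value, a counting error of 1.16 to 1.64%, far under the 1.88-fold range between libraries.

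Nefm (ENSMUSG00000022054.11; chromosome 14, minus strand), whose tail takes part in side-arm spacing, lies 30.4 kb from Nefl on the other strand. Its values were 5.91, 9.08 and 6.57 FPKM in HET and 8.95, 4.89 and 6.96 FPKM in WT. As for Nefl, HET replicate 2 and WT replicate 1 were the 2 highest libraries and WT replicate 2 was the lowest. The mean was 7.19 ± 1.67 FPKM in HET and 6.93 ± 2.03 FPKM in WT (SD, n = 3 each), with a log2 difference of 0.059 (SE 0.16, 95% interval -0.25 to 0.37, limma adjusted p = 0.93). After scaling by the median of ratios the difference was -0.042 (95% interval -0.35 to 0.27). The step size of Nefm matched the RefSeq model, 68119545 to 68125004. A longer GENCODE model of the gene shares 1108 exon bases with Nefl, but the RefSeq models of the 2 genes share none.

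Nefh (ENSMUSG00000020396.8; chromosome 11, 4938754 to 4948064, minus strand), the heavy chain of mature large axons, had 14.4, 17.4 and 15.2 FPKM in HET and 17.4, 10.8 and 15.0 FPKM in WT. WT replicate 2 was again the lowest, and the other 5 libraries lay within 14.4 to 17.4 FPKM. The mean was 15.7 ± 1.58 FPKM in HET and 14.4 ± 3.33 FPKM in WT (SD, n = 3 each), with a log2 difference of 0.13 (SE 0.16, 95% interval -0.19 to 0.46, limma adjusted p = 0.90) as deposited and 0.022 after scaling.

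Ina (ENSMUSG00000034336.3; chromosome 19, 47014698 to 47025327, plus strand), which encodes alpha-internexin, had 8.80, 10.2 and 8.73 FPKM in HET and 10.8, 7.22 and 9.21 FPKM in WT. All 3 HET libraries lay between the lowest and the highest WT library. The log2 difference was 0.037 (SE 0.15, 95% interval -0.26 to 0.34, limma adjusted p = 0.95) and -0.069 after scaling. Exons of Ina overlap those of Nt5c2 on the other strand over 456 bases, and the strand setting of the quantification is not given in the sources used here.

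The proportions of the subunits, which do not depend on how a library is scaled, were compared on the deposited scale, where only their change between libraries can be read. The ratio of Nefh to Nefl was 0.377, 0.357 and 0.432 in HET and 0.349, 0.408 and 0.401 in WT, a difference of 0.0094 in the mean log2 ratio (two-sided exact permutation p = 1.00). The ratio of Nefm to Nefl was 0.155, 0.186 and 0.187 in HET and 0.179, 0.184 and 0.186 in WT (log2 difference -0.063, exact permutation p = 1.00). Apart from HET replicate 1, its values lay between 0.179 and 0.187, while the level of Nefl itself varied 1.88-fold over the libraries. For Ina over Nefl the ratio was 0.231, 0.209 and 0.248 in HET and 0.216, 0.272 and 0.246 in WT (log2 difference -0.091, exact permutation p = 0.50). With 3 against 3 libraries this test cannot go below 0.1, and each of the 5 ratios compared had a p of 1.00 after Benjamini-Hochberg adjustment over them.

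Map2 (chromosome 1, 66175273 to 66442583, plus strand), the microtubule-binding protein of dendrites, had 2.72, 3.01 and 2.86 FPKM in HET and 3.00, 2.24 and 2.96 FPKM in WT. Its mean was 2.87 ± 0.145 FPKM in HET and 2.73 ± 0.424 FPKM in WT (SD, n = 3 each), with a log2 difference of 0.057 (SE 0.12, 95% interval -0.19 to 0.30, limma adjusted p = 0.92) and -0.028 after scaling. Without WT replicate 2, the lowest library, Map2 varied from 2.72 to 3.01 FPKM.

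Mapt (chromosome 11, 104231390 to 104332090, plus strand) encodes tau, which binds microtubules in axons. It had 2.78, 3.03 and 2.81 FPKM in HET and 3.14, 2.33 and 2.76 FPKM in WT, with a log2 difference of 0.054 (SE 0.12, 95% interval -0.19 to 0.30, limma adjusted p = 0.92). After scaling by the median of ratios it was the steadiest of the 10, with a highest library 1.09 times its lowest and a difference of -0.032 (95% interval -0.14 to 0.076). The ratio of the dendritic Map2 to the axonal Mapt was 0.981, 0.993 and 1.02 in HET and 0.956, 0.962 and 1.07 in WT (log2 difference 0.0044, two-sided exact permutation p = 1.00).

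Map1a (chromosome 2, 121289600 to 121310832, plus strand), the MAP1 protein of mature neurons, had 22.4, 26.5 and 26.4 FPKM in HET and 26.6, 21.4 and 30.2 FPKM in WT. Map1b (chromosome 13, 99421446 to 99516540, minus strand), which is more abundant in developing neurons, had 7.97, 9.05 and 9.54 FPKM in HET and 9.55, 7.52 and 10.4 FPKM in WT. These were the only 2 of the 9 genes with a lower mean in HET as deposited. The log2 difference was -0.043 for Map1a (SE 0.17, 95% interval -0.38 to 0.29) and -0.036 for Map1b (SE 0.15, 95% interval -0.33 to 0.26), each with a limma adjusted p of 0.95. After scaling by the median of ratios the differences were -0.16 (95% interval -0.40 to 0.089) and -0.14 (95% interval -0.37 to 0.083). The ratio of Map1a to Map1b kept within 2.77 to 2.93 in all 6 libraries, the narrowest of the 5 ratios, with 2.81, 2.93 and 2.77 in HET and 2.78, 2.85 and 2.90 in WT (log2 difference -0.0046, exact permutation p = 0.90). Both genes are translated as precursors that are cut into a heavy and a light chain, which RNA levels do not show. Exons of Map1a overlap those of Ppip5k1 on the other strand over 272 bases.

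Stmn2 (chromosome 3, 8509360 to 8561606, plus strand), which encodes stathmin-2, had 5.50, 5.41 and 4.82 FPKM in HET and 5.65, 4.36 and 5.18 FPKM in WT. The groups overlapped, and its 1.30-fold range over the libraries as deposited was the narrowest of the 10. The log2 difference was 0.046 (SE 0.13, 95% interval -0.22 to 0.32, limma adjusted p = 0.94) as deposited and -0.052 after scaling.

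**Figure D2:**
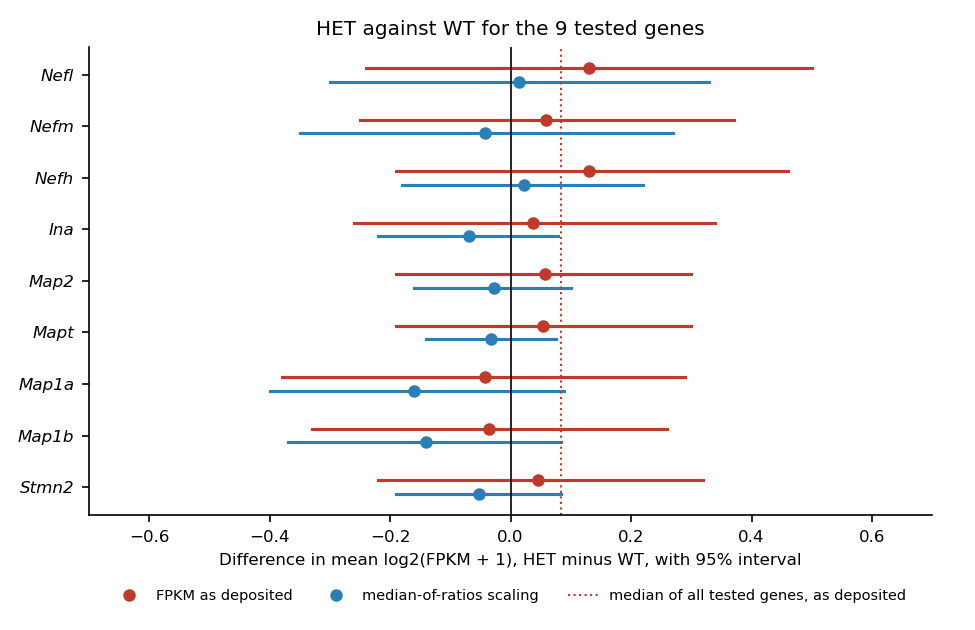
Difference in mean log2(FPKM + 1), HET minus WT (horizontal axis), for the 9 tested genes, with its 95% interval, as deposited in red and after median-of-ratios scaling in blue; the dotted line is the median of all tested genes as deposited, 0.083. Every interval includes 0, and 5 of the 9 estimates lie right of 0 as deposited and left of it after scaling.

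Prph differed from the other 9 in both its level and its pattern. It had 0.0732, 0.0388 and 0.0574 FPKM in HET, against 0.00925, 0.00978 and 0.00919 FPKM in WT (chromosome 15, 99055174 to 99058978, plus strand). These values stand for 7, 4 and 5 reads in HET libraries and 1 read in each WT library, so peripherin RNA was near the limit of detection in this tissue. Every HET library was above every WT library. A higher HET group with no overlap was found in 865 of the 19511 genes with a value above 0 in any library (4.43%). The 16 HET reads against 3 WT reads gave a ratio of 5.95 at equal depth, with an exact 95% interval of 1.70 to 31.9 that covers counting error only. The exact permutation test gave p = 0.10, the smallest value that 3 against 3 libraries allow. With no filter on low values the limma adjusted p of Prph was 0.97.

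Because peripherin marks motor and other brainstem neurons, genes of the hindbrain outside the cerebellum were read in the same libraries. The summed level of 16 such genes was 0.466 to 0.726 FPKM in HET libraries and 0.279 to 0.630 FPKM in WT libraries, and none of the 16 was at 0 in every library. Th alone was the largest part of this sum in every library, at 0.266, 0.395 and 0.328 FPKM in HET and 0.269, 0.124 and 0.263 FPKM in WT. The groups did not overlap for 2 of the 16, Chat and Dbh, both higher in HET, as were 4.43% of all genes with a value above 0. Chat, the acetylcholine-synthesizing enzyme, had 1, 3 and 2 reads in HET and 0 reads in each WT library. Dbh, the noradrenaline-synthesizing enzyme, had 9, 23 and 13 reads in HET and 10, 7 and 3 reads in WT, which overlap as reads and separate as FPKM only by 0.0202 in the lowest HET library against 0.0199 in the highest WT library. Slc18a3, the vesicular acetylcholine transporter, had 0, 1 and 6 reads in HET and 0 in each WT library, and Slc5a7, the choline transporter, had 7, 22 and 14 reads in HET and 8, 5 and 5 reads in WT. Hoxa2, a transcription factor of the embryonic hindbrain, had 2, 1 and 0 reads in HET and 9, 4 and 2 reads in WT, and Tph2, the serotonin-synthesizing enzyme of the brain, had 23, 14 and 13 reads in HET and 23, 18 and 27 reads in WT. The part of a difference in dissection in the Prph values was not tested.

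**Figure D3:**
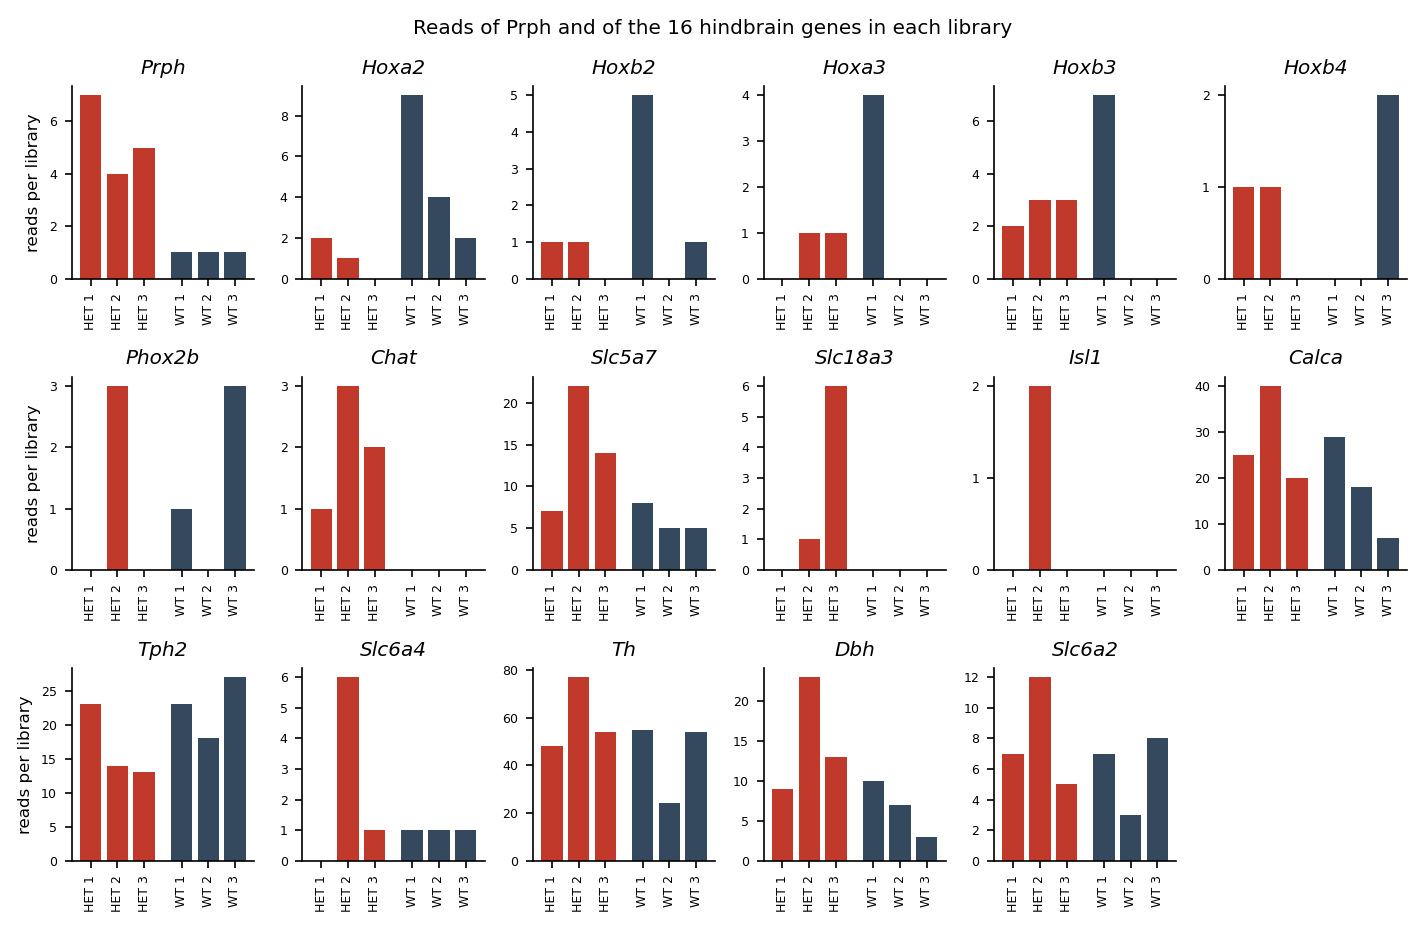
Reads of Prph and of the 16 genes of the hindbrain outside the cerebellum (vertical axis, reads per library, a separate scale for each gene), in HET libraries in red and WT libraries in dark blue. Prph has 4 to 7 reads in HET and 1 in each WT library, Chat, Slc18a3 and Isl1 have no read in WT, Hoxa2, Hoxb2 and Tph2 have more reads in WT than in HET libraries in sum, and most of the 16 have overlapping groups.

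The promoters of 5 of the 10 genes (Ina, Map1a, Map1b, Map2 and Prph) were in the RefSeq promoter table (GRCm38.p6), and those of Prph and Ina are shown because Prph was the one gene of the 10 near the limit of detection and Ina, of the same filament family, was not. Each is the 250 bases, plus strand, before the transcript start that the table uses, 99055174 for Prph and 47014681 for Ina; the RefSeq gene record of Prph begins farther upstream, at 99053579. The capitals mark the TATA box letters TATAAA in Prph and the GC box letters CCGCCC in Ina.
Prph, chr15:99054924-99055173: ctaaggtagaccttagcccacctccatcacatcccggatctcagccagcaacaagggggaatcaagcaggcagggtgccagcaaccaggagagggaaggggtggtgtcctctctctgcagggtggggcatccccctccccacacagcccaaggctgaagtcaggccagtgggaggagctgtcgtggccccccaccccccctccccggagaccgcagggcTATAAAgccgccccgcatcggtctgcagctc
Ina, chr19:47014431-47014680: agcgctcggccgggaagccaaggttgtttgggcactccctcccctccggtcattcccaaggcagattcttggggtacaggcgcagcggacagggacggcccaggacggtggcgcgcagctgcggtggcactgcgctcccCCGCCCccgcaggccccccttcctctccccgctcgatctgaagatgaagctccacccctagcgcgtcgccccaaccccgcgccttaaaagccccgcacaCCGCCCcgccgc
The Prph promoter holds TATAAA, whose first base lies 31 bases before the start. Searched on both strands (TATAAA or TTTATA), these letters are also in the Map1b promoter, 99 bases before its start, are not in those of Ina, Map1a and Map2, and are in 12.4% of 32851 promoters of the same length. The GC box (GGGCGG or CCGCCC) is in 32.7% of them, with 1 match in Prph, 2 in Ina, 5 in Map2, 4 in Map1a and 1 in Map1b. The CCAAT box (CCAAT or ATTGG) is in 33.8% of them and, of the 5 genes, in Map1a. A match is a stretch of letters and not a measured site.

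Within the WT group the highest library was 1.88 times the lowest for Nefl, 1.83 times for Nefm, 1.61 times for Nefh and 1.49 times for Ina, while the ratio of the HET mean to the WT mean was 1.07, 1.04, 1.09 and 1.02 for these 4 genes. All 9 tested genes were lowest in WT replicate 2, as were 78.4% of the 6358 genes. Nefl stood at 97.0, 124 and 89.5% of its own mean over the 6 libraries in HET and at 127, 67.5 and 95.3% in WT. Nefm was at 83.7, 129 and 93.1% of its mean in HET and at 127, 69.2 and 98.6% in WT. After scaling by the median of ratios part of this range stayed: the highest library was 1.46 times the lowest for Nefl, 1.42 times for Nefm, 1.25 times for Nefh and 1.16 times for Ina, against a median of 1.22 over all genes. The MAP1 genes had another pattern, highest in WT replicate 3, at 118% of the mean for Map1a and 115% for Map1b as deposited and 121% and 119% after scaling.

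The libraries with high Nefl and Nefm, HET replicate 2 and WT replicate 1, and the one with low values, WT replicate 2, also differed in markers of other cells. Spp1, which marks large neurons of the deep nuclei, had 2.16, 2.98 and 1.87 FPKM in HET and 2.86, 1.00 and 2.02 FPKM in WT. The summed level of 6 markers of the deep nuclei and other large projection neurons was 42.8 to 50.9 FPKM in HET and 36.2 to 51.6 FPKM in WT, as deposited highest in the same 2 libraries and lowest in WT replicate 2. With median-of-ratios scaling this sum was 42.4, 44.8 and 46.1 in HET and 47.8, 43.1 and 49.8 in WT, so it was then highest in WT replicate 3 and lowest in HET replicate 1, unlike Nefl. Spp1 alone, at 2.15, 2.62 and 1.90 in HET and 2.65, 1.19 and 2.07 in WT after scaling, stayed highest in HET replicate 2 and WT replicate 1 and lowest in WT replicate 2. The 7 oligodendrocyte markers, genes of the myelin that wraps these axons, summed to 183, 247 and 201 FPKM in HET and 221, 139 and 169 FPKM in WT as deposited, and to 182, 217 and 204 in HET and 204, 166 and 173 in WT after scaling. Malat1, a nuclear noncoding RNA, had 428, 372 and 304 FPKM in HET and 426, 677 and 646 FPKM in WT, and made up most of the sum of 6 such RNAs (316 to 445 FPKM in HET and 443 to 701 FPKM in WT). Meg3, Kcnq1ot1 and Neat1 were also highest in WT replicates 2 and 3, but Rian and Mirg were not. The 7 granule cell markers summed to 539, 518 and 550 FPKM in HET and 540, 487 and 517 FPKM in WT as deposited. After scaling these sums were 535, 456 and 558 in HET and 500, 580 and 531 in WT. The sums were then lowest in HET replicate 2 and WT replicate 1 and highest in WT replicate 2, opposite to Nefl. Of the single markers only Cbln1 followed this in full. Cbln3, Fat2 and Etv1 shared the 2 lowest libraries but not the highest. Neurod1 and Slc17a7 shared the highest but not both of the lowest, and Gabra6 shared neither in full. In bulk tissue fewer cells of a type and less RNA per cell cannot be told apart, and the part of the tissue taken in these values was not tested.

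**Figure D4:**
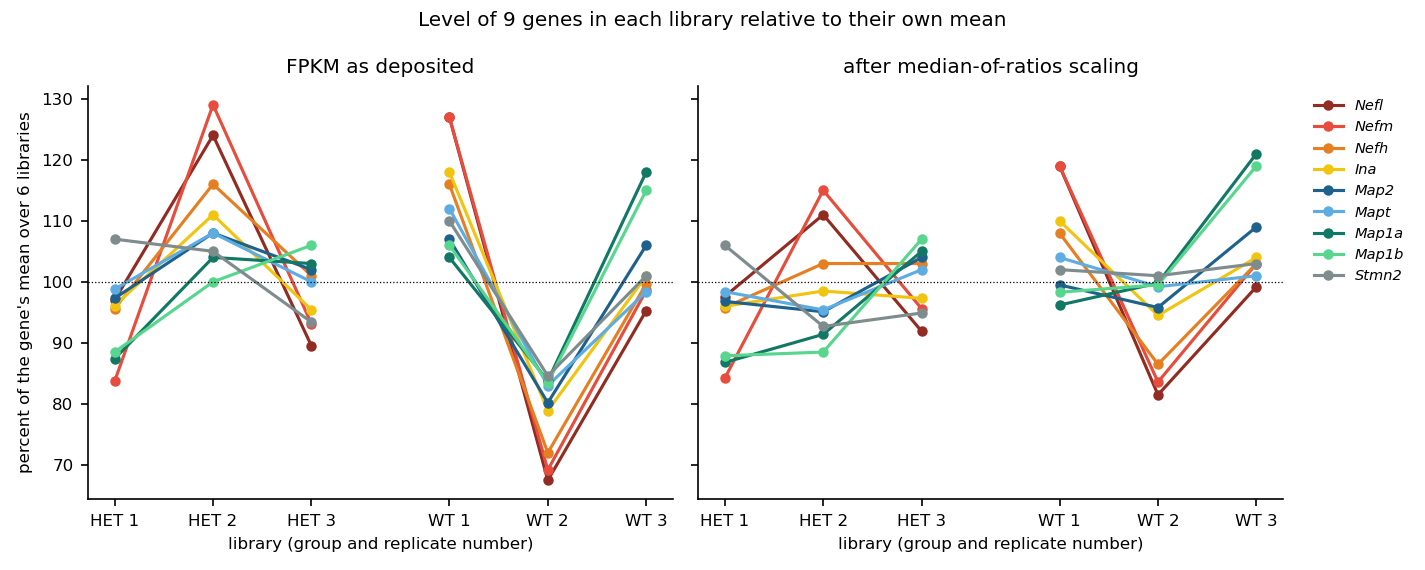
Level of the 9 tested genes in each library as a percent of the gene's own mean over 6 libraries (vertical axis, not starting at 0), as deposited at left and after median-of-ratios scaling at right; the lines only join the points of 1 gene within a group. Nefl and Nefm peak in HET replicate 2 and WT replicate 1 and fall to 67.5 and 69.2% in WT replicate 2, while Map1a and Map1b are highest in WT replicate 3.

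To see which genes followed the neurofilaments, the mean log2 level of Nefl, Nefm and Nefh was correlated over the 6 libraries with each of the 6358 tested genes, as a description. The 5 genes most like it were the splicing factor gene Sf3a1 (r = 0.999), Sbf1 (0.999), the lysosomal activator Gm2a (0.998), the palmitoyltransferase gene Zdhhc5 (0.998) and the endocytic adaptor Epn1 (0.997). Such values were common, since the median r of all genes was 0.824 and 29.3% of them exceeded 0.9, all over the same 6 libraries. Of the other 6 tested members, Ina had r = 0.989, Mapt 0.979, Map2 0.912, Stmn2 0.848, Map1a 0.625 and Map1b 0.624. After scaling by the median of ratios the median r of all genes was 0.012 and 2.31% exceeded 0.9. Ina then kept r = 0.817, while Mapt had 0.196, Map2 0.161, Map1a -0.014, Map1b -0.033 and Stmn2 -0.275. Of the 5 genes most alike as deposited, Gm2a (0.981), Sf3a1 (0.921) and Zdhhc5 (0.920) stayed above 0.9 after scaling, and Epn1 (0.728) and Sbf1 (0.368) did not.

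The other genes of the neuronal cytoskeleton were read from 7 lists with 146 genes, of which 102 passed the filter of 1 FPKM. None of the 102 was called by limma, beside the 0.0786% called of all genes. An unadjusted limma p under 0.05 was found for 1 of the 102, beside 212 of the 6358 genes tested. The median difference of the 102 was 0.077, against 0.083 for all genes, and -0.0081 after scaling by the median of ratios. The counts of higher and lower means in each list below are to be read against the 83.1% of all genes that were higher in HET as deposited and the 49.1% after scaling. Since the filter acts on reads per kilobase of span, long genes such as Ank3, Nfasc, Nav1 and Gsk3b were among those not tested.

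Of the tubulins, the subunits of the microtubule, 12 of 16 were tested, 11 with a higher and 1 with a lower mean in HET, at a median of 0.18 as deposited and 0.064 after scaling. Tubb2a, a beta-tubulin of neurons, had the smallest p among the higher, with 58.4 ± 8.60 FPKM in HET and 48.5 ± 8.57 FPKM in WT (SD, n = 3 each; log2 difference 0.27, limma adjusted p = 0.90). The centrosomal gamma-tubulin Tubg2 was the lower one as deposited, with 2.29 ± 0.139 FPKM in HET and 2.36 ± 0.235 FPKM in WT.

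Of the other microtubule-associated and plus-end proteins, 24 of 34 were tested, 18 with a higher and 6 with a lower mean as deposited and 7 and 17 after scaling. Tppp3, a tubulin-polymerizing protein, was the one gene with an unadjusted p under 0.05. It had 11.4, 11.1 and 10.1 FPKM in HET and 9.30, 9.0 and 7.47 FPKM in WT, with no overlap, a log2 difference of 0.31 (SE 0.15) and a limma adjusted p of 0.90. After scaling its difference was 0.20. Crmp1 and Dpysl4, collapsin response mediator proteins of growing axons, were also higher in every HET library than in any WT library as deposited. Their log2 differences were 0.14 and 0.075 as deposited and 0.06 and -0.024 after scaling, so that of Dpysl4 changed direction. Such separation in either direction as deposited was found in 3 of the 24 genes here and in 0 genes of each other list. Among all tested genes it was found in 5.55%. Mtcl1, a microtubule cross-linker of the Purkinje cell axon, had 1.83 ± 0.0652 FPKM in HET and 2.08 ± 0.229 FPKM in WT (SD, n = 3 each; log2 difference -0.12, limma adjusted p = 0.90).

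Enzymes that modify or sever microtubules had 10 of 20 genes tested, 9 higher and 1 lower in HET as deposited, at a median of 0.046, and 2 higher and 8 lower after scaling, at a median of -0.029. The tubulin tyrosine ligase Ttl was the 1 lower gene as deposited, with a log2 difference of -0.066. Of the axonal transport motors 23 of 26 were tested, 21 higher and 2 lower as deposited, at a median of 0.097, and 11 higher and 12 lower after scaling, at a median of -0.0071. Dctn2, a dynactin subunit, had 11.0 ± 1.00 FPKM in HET and 9.32 ± 0.865 FPKM in WT (SD, n = 3 each; log2 difference 0.21, limma adjusted p = 0.90), and the kinesin gene Kif3a differed by -0.011. Spectrins, ankyrins and proteins of the axon initial segment had 12 of 15 genes tested, 10 higher and 2 lower as deposited and 1 higher and 11 lower after scaling. The ankyrin gene Ank1 had 1.91 ± 0.207 FPKM in HET and 2.05 ± 0.311 FPKM in WT (SD, n = 3 each; log2 difference -0.067, limma adjusted p = 0.90).

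Phosphorylation of tau and of the neurofilament tails depends on CDK5, GSK3 and other kinases, and on phosphatases that oppose them. Of this list 14 of 23 genes were tested, and all 14 had a higher mean in HET as deposited, at a median of 0.13, while 10 were higher and 4 lower after scaling, at a median of 0.039. Ppp2r1a, the scaffold of protein phosphatase 2A, had the smallest p, with 15.9 ± 3.22 FPKM in HET and 13.1 ± 1.70 FPKM in WT (SD, n = 3 each; log2 difference 0.25, limma adjusted p = 0.90). The value of Cdk5r2, an activator of CDK5, could not be read in HET replicate 2, so it was not tested. Of other intermediate filament and linker genes 7 of 12 were tested, 5 higher and 2 lower as deposited, at a median of 0.028, and 2 higher and 5 lower after scaling, at a median of -0.028. The astrocyte filament Gfap had 13.8 ± 6.03 FPKM in HET and 12.1 ± 5.23 FPKM in WT (SD, n = 3 each). As deposited, Gfap was highest in HET replicate 2 (20.8 FPKM) and WT replicate 1 (17.9 FPKM), where Nefl was highest too. These 2 libraries also had the largest median-of-ratios factors, 1.136 and 1.08. The linker Plec differed by -0.091 on the log2 scale.

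**Figure D5:**
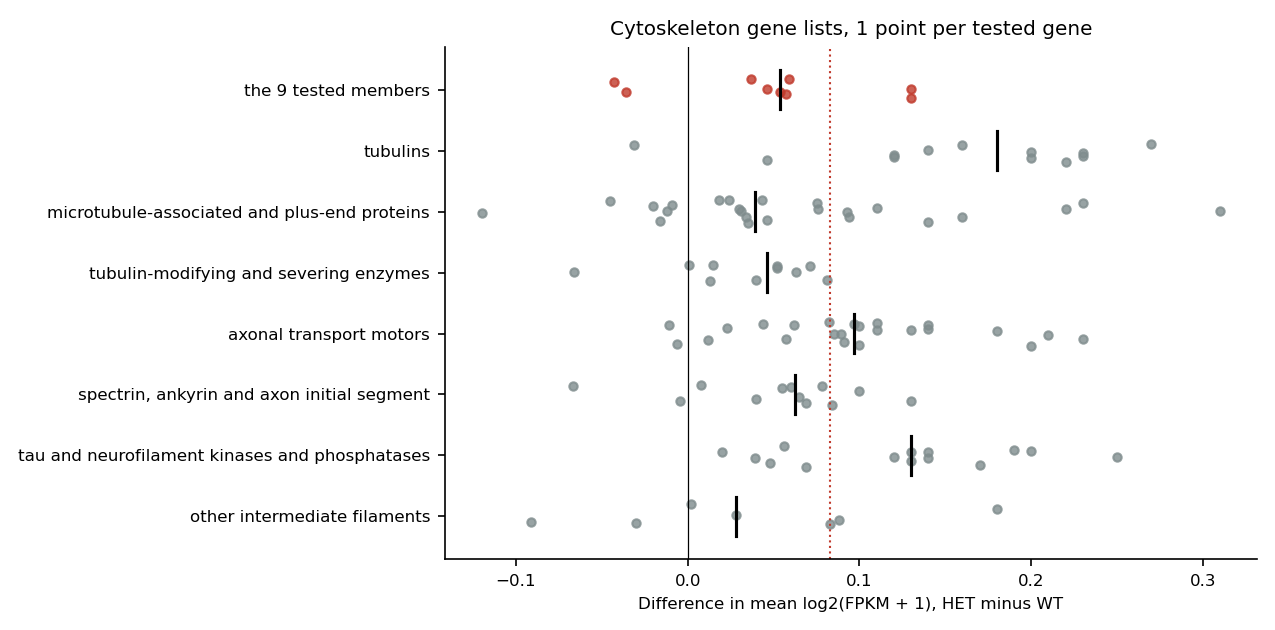
Difference in mean log2(FPKM + 1), HET minus WT, as deposited (horizontal axis), with 1 point for each tested gene of the 7 cytoskeleton lists and, in red, the 9 tested genes described first; black marks are list medians and the dotted line is the median of all tested genes, 0.083. The list medians lie between 0.028 and 0.18, and no point stands for a gene past the test's threshold.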

How the data were processed

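The authors' deposited values are FPKM, 1 file per library, from total RNA (RNeasy columns, stranded total RNA kit, 75-base single-end reads). Mitochondrial and ribosomal reads were filtered out, 2 bases trimmed, reads aligned to mm10 by TopHat2 with Bowtie 1, and Cufflinks gave the gene values, per the labels' protocols. Other versions, the annotation and the strand setting: not given in the sources used here. The authors' own Cuffdiff 2.1.1 test was not used.

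The labels define FPKM per kilobase of exon, but the steps between low values fit reads per kilobase of gene span. Depths and reads were recovered from those steps; 87.4 to 89.5% of values of up to 500 reads came within 0.1 of a whole read. No value of a member was altered by this, and read numbers of Nefl, Map2, Mapt, Map1a and Map1b are approximate. In HET replicate 2, 40 values read as spreadsheet dates, and those genes were not tested.

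The 6358 genes whose mean reached 1 FPKM were tested on log2(FPKM + 1) in limma 3.58.1 under R 4.3.3, using an intensity trend and p-values adjusted over all of them after Benjamini and Hochberg, at an adjusted p under 0.05; a difference on this scale understates the change of low genes. Prph, Reln and ratios were compared by two-sided exact permutation. The fit was tested on simulated data with noise drawn separately for each value and no shift of whole libraries, so such shifts were not covered. Positions come from GENCODE M21 (GRCm38, the assembly of mm10) and RefSeq. Named genes were the 10 members, Reln, from each list the gene with the smallest p in either direction (some are not reported here), the 5 genes most like the neurofilament mean, and cell type markers; Crmp1, Dpysl4 and the untested long genes were named after their values were seen. The members and lists were chosen with earlier results of these data known. The rest used Python 3.11.15 with numpy 2.4.6, pandas 2.3.3 and scipy 1.17.1, and figures matplotlib 3.10.9.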

Additional observations from a re-analysis of the deposited data

How the results depend on the processing

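No member passed the threshold under any of 151 alternatives to the 9 tested differences (lowest limma adjusted p 0.32, range -0.30 to 0.34). Scaling set the direction of 5 of them. Median-of-ratios scaling gave -0.042 for Nefm, -0.069 for Ina, -0.028 for Map2, -0.032 for Mapt and -0.052 for Stmn2. Upper-quartile scaling gave -0.046, -0.072, -0.031, -0.034 and -0.055 in the same order. An RPM scale (reads per total reads, with no gene length) with median-of-ratios scaling, added after seeing the data, gave -0.028, -0.055, -0.019, -0.023 and -0.043. Each of the 3 left 2 members higher in HET, against 7 as deposited. Without HET replicate 2 and WT replicate 2 together, 0 were higher, with -0.23 for Nefl, -0.30 for Nefm, -0.12 for Nefh, -0.17 for Ina, -0.068 for Map2, -0.057 for Mapt and -0.061 for Stmn2, and the log2 ratio differences were 0.055 for Ina over Nefl and -0.017 for Map2 over Mapt. The cause was not tested.

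Leaving out 1 library gave 0 (without WT replicate 2) to 9 (without HET replicate 1 or WT replicate 3) members higher in HET. The differences then ran from -0.099 to 0.34 for Nefl, -0.14 to 0.24 for Nefm, -0.047 to 0.27 for Nefh, -0.10 to 0.16 for Ina, -0.041 to 0.11 for Map2, -0.027 to 0.13 for Mapt, -0.17 to 0.066 for Map1a, -0.16 to 0.052 for Map1b, -0.04 to 0.12 for Stmn2 and 0.054 to 0.078 for Prph. The ratio differences ran from -0.068 to 0.068 for Nefh over Nefl, -0.11 to 0.026 for Nefm over Nefl, -0.18 to -0.011 for Ina over Nefl, -0.024 to 0.057 for Map2 over Mapt and -0.029 to 0.013 for Map1a over Map1b.

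Over all genes, 5 were called as deposited, 1 with no filter, 0 after median-of-ratios scaling, 0 after upper-quartile scaling, 0 without the intensity trend, 67 without HET replicate 2 and WT replicate 2 together, and 5 to 62 with 1 library left out (19, 18 and 42 without HET replicates 1, 2 and 3, and 62, 5 and 16 without WT replicates 1, 2 and 3). On the RPM scale, also added after seeing the data, 0 of 13162 genes were called with either scaling (0%; 238 had an unadjusted p under 0.05 without the second scaling). There Reln, under the filter in the main test, differed by -0.65 (SE 0.15, unadjusted p = 0.00029, limma adjusted p = 0.99). With the replicate number as a block 13 genes were called and no member. Same-numbered libraries had correlations of deviations of -0.28, -0.52 and 0.14, within or below the -0.39 to 0.49 of other pairs. Whether same-numbered libraries shared a batch was not tested. Counting error of the tested members was at most 3.73%, so depth limited only Prph.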
